A study of Drosophila melanogaster with 7 samples.

Results

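The genes described here are 10 members of the Jun N-terminal kinase (JNK) pathway of Drosophila melanogaster and the stress-responsive transcription factors that work with it: egr, hep, bsk, kay, Jra, puc, Ets21C, Atf3, Gadd45 and Mmp1. They were picked by gene symbol, and each of the 10 was found among the 17481 genes of the deposited expression table. RNA was sequenced from cells of the adult midgut, sorted by green fluorescence as intestinal stem cells, with about 10000 cells in a sample. There were 4 ScOE libraries, in which Sc was overexpressed, and 3 Ctrl libraries of wild-type genotype, and all flies were adults at day 2. Sc, the product of scute (sc), is a proneural transcription factor that acts in the formation of enteroendocrine cells, the hormone-secreting cells of the gut. Cells of both groups carried the green fluorescent label used for the sort, which followed elastase digestion of the gut, and the RNA was amplified before sequencing. The driver of that label, the driver of the sc transgene and the number of animals behind a library are not given in the sources used here, and p-values measure only how far these libraries spread, which may be technical.

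JNK signalling is a kinase cascade that cells switch on under stress, infection and wounding. In Drosophila the tumour necrosis factor ligand Eiger (egr) binds its receptors Grindelwald and Wengen, a chain of upstream kinases activates the JNK kinase Hemipterous (hep), and Hemipterous phosphorylates the JNK Basket (bsk). Basket in turn activates the transcription factor AP-1, formed by the Fos protein Kayak (kay) and the Jun protein Jra. AP-1 targets include puckered (puc), whose phosphatase product switches Basket off again, and the matrix metalloproteinase gene Mmp1. In the midgut the pathway is known for driving stem cell division and epithelial renewal after damage, partly through the cytokine genes of the unpaired family.

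Expression was given in FPKM, a fragment number corrected for transcript length and for sequencing depth, a scale on which levels of different genes can be compared per length. Absolute depth is unknown, because FPKM does not keep read numbers. Judged by the most frequent ratio among low values, and taking ScOE 3 as 1, relative depth was 0.859 to 1.04 in the other ScOE libraries and 0.448 to 0.599 in Ctrl. In these libraries 23.7% to 28.5% of the low values lay at that ratio. It measures depth only if the libraries were not scaled to each other, which is not stated. A gene was tested if 3 or more of the 7 libraries had 1 FPKM or more, which 8421 genes met, all 10 described here among them. The overexpressed gene sc was at 66.0 to 190 FPKM in the ScOE libraries and at 0.886 to 2.44 FPKM in the Ctrl libraries. Progenitor markers were present in both groups, with the 8 listed genes summing to 511 to 625 FPKM in ScOE and to 646 to 846 FPKM in Ctrl. Of these 8, Sox21a, Sox100B and zfh2 were called lower in ScOE, at log2 fold changes of -1.31, -1.59 and -1.09, and the other 5 did not pass. Over all tested genes 21.3% were called lower and 17.6% higher. Among those 5, Dl went the other way, at a log2 fold change of 1.13 with overlapping groups. The log2 fold changes of esg, mira, hdc and klu lay between -0.34 and -0.02. Markers of other gut cells moved with the groups or varied between libraries. The 10 enteroendocrine markers summed to 2737 to 8092 FPKM in ScOE and to 86.4 to 959 FPKM in Ctrl. Of these 10, 9 were called higher and 0 lower, against the same shares over all tested genes. The 13 enterocyte markers summed to 326 to 9153 FPKM in ScOE and to 845 to 26532 FPKM in Ctrl. Although these sums overlapped, 5 of the 13 were called lower and 0 higher. Of 7 hemocyte markers only srp and crq reached the filter, and the defining markers Hml, NimC1, Pxn, eater and He lay between 0 and 1.15 FPKM in every library. Both tested ones were lower in ScOE (log2 -1.03 for crq and -0.48 for srp), as was btl (log2 -1.35), the only tracheal marker of 5 that was tested. Summed tracheal markers were at 1.24 to 2.46 FPKM in ScOE and at 3.36 to 4.82 FPKM in Ctrl. Most of this sum was btl itself, at 0.651 to 1.49 FPKM in ScOE and 3.16 to 4.38 FPKM in Ctrl. The untested trh and serp went the other way, both under 1 FPKM in every library. In ScOE trh was at 0.122 to 0.249 and serp at 0.348 to 0.778 FPKM. In Ctrl they were at 0.0669 to 0.113 and 0.0953 to 0.190 FPKM. For verm and Gasp the groups overlapped. Muscle markers summed to 124 FPKM in ScOE 3 and to at most 8.53 FPKM in the other libraries. The part of these cells and markers in the results below was not tested. In such bulk samples fewer cells of a type and less RNA per cell cannot be told apart.

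The ligand gene egr, both AP-1 genes, the transcription factor genes Ets21C and Atf3, and the genes puc, Gadd45 and Mmp1 were lower in ScOE than in Ctrl, while the kinase genes hep and bsk did not pass the test. Of the 10 genes 8 fell and 0 rose at an adjusted p under 0.05 in limma on log2(FPKM + 1), against 21.3% of all tested genes called lower and 17.6% called higher. At an unadjusted p under 0.05 also, 0 of the 10 rose. The 10 genes had a median log2 fold change of -1.28, and the 8421 tested genes one of -0.08. A called fall by at least 1 on the log2 scale was reached by 7 of the 10, against 7.89% of all tested genes, and a called rise by at least 1 by 0 of the 10, against 9.33%. In the same 8 genes every ScOE library lay below every Ctrl library, against 25.9% of all tested genes, and in bsk every ScOE library lay above every Ctrl library, against 20.3% of all tested genes.

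**Figure D1:**
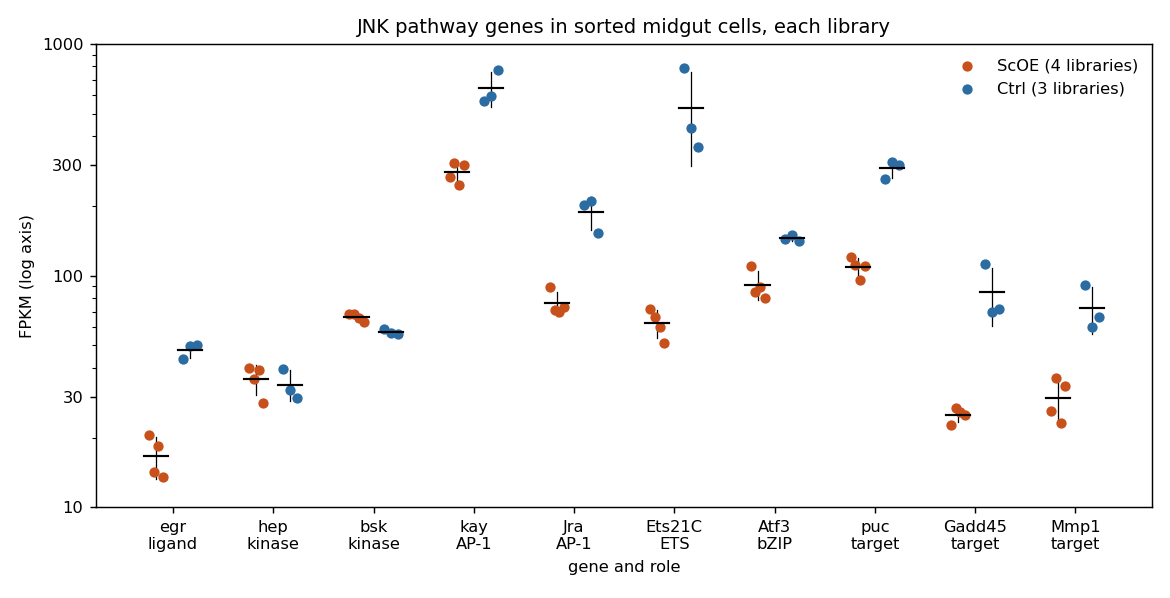
FPKM of the 10 genes in each library on a log axis, ordered from ligand to targets; orange points are the 4 ScOE libraries, blue points the 3 Ctrl libraries, horizontal bars the means and vertical bars 1 SD. For egr, kay, Jra, Ets21C, Atf3, puc, Gadd45 and Mmp1 all orange points lie below all blue points, for hep the groups overlap, and for bsk the ScOE points, at 63.1 to 68.6 FPKM, lie above the Ctrl points, at 55.9 to 59.0 FPKM.

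The ligand gene egr (FBgn0033483) was at 20.5, 14.1, 18.5 and 13.6 FPKM in ScOE 1 to 4, against 43.5, 49.7 and 50.4 FPKM in Ctrl 1 to 3. The groups were well apart, with the highest ScOE library under the lowest Ctrl library. Mean levels were 16.7 ± 3.37 FPKM in ScOE (SD, n = 4) and 47.8 ± 3.79 FPKM in Ctrl (SD, n = 3), a log2 fold change of -1.48 ± 0.17 (SE) with an adjusted p of 0.000656 in limma. The fold changes given here and below are ScOE minus Ctrl on the log2(FPKM + 1) scale.

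The kinase genes hep and bsk did not pass the test on the values as deposited. The gene hep (FBgn0010303), the JNK kinase, was at 39.8, 36.0, 39.1 and 28.3 FPKM in ScOE and at 39.7, 32.1 and 29.8 FPKM in Ctrl. Its groups overlapped, and the log2 fold change of 0.08 had a 95% confidence interval from -0.31 to 0.46 (adjusted p = 0.746 in limma). The gene bsk (FBgn0000229), the only JNK of the fly, was at 68.6, 68.3, 65.9 and 63.1 FPKM in ScOE and at 59.0, 56.4 and 55.9 FPKM in Ctrl. The ScOE libraries all lay above the Ctrl libraries, by a small margin. That log2 fold change was 0.21, with an interval from -0.01 to 0.44 and an adjusted p of 0.113 in limma. The call of bsk depended on scaling and weighting. It passed as higher in ScOE with median of ratios scaling (log2 0.29, adjusted p = 0.0346), with upper quartile scaling (log2 0.39, adjusted p = 0.0156), with quantile normalization (log2 0.43, adjusted p = 0.0167) and with library weights in limma (log2 0.24, adjusted p = 0.0157). Both kinase genes were called higher in limma with equal FPKM totals (bsk log2 1.07, adjusted p = 0.00189, and hep log2 0.92, adjusted p = 0.00748) and when the 10 highest entries were left out of those totals (bsk log2 0.80 and hep log2 0.65). No scaling that was run placed hep or bsk lower in ScOE.

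Both AP-1 genes fell. The Fos gene kay (FBgn0001297) was at 267, 306, 246 and 299 FPKM in ScOE and at 570, 599 and 774 FPKM in Ctrl, a mean level 2.32-fold lower. It had the highest mean of the 10 genes in both groups. The log2 fold change was -1.20 ± 0.15, with an adjusted p of 0.000963 in limma. The Jun gene Jra (FBgn0001291) was at 89.7, 71.3, 69.4 and 73.4 FPKM in ScOE and at 202, 210 and 153 FPKM in Ctrl. Its log2 fold change of -1.29 ± 0.16 (adjusted p = 0.000848 in limma) was within 1 SE of that of kay.

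The ETS-domain factor gene Ets21C (FBgn0005660), a stress-inducible gene of intestinal progenitors, had the deepest fall of the 10. It was at 71.5, 66.5, 60.0 and 51.4 FPKM in ScOE and at 788, 434 and 359 FPKM in Ctrl. The ScOE libraries were close together, whereas Ctrl 1 stood far above the other Ctrl libraries. The mean was 8.45-fold lower in ScOE, and the log2 fold change was -2.98 ± 0.27 (adjusted p = 0.000275 in limma). Without Ctrl 1 the log2 fold change was -2.65, and over all 7 single omissions it ran from -3.22 to -2.65. Ranked by log2 fold change from the lowest, Ets21C was in place 51 of the 8421 tested genes, Gadd45 in place 247 and egr in place 338.

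Atf3 (FBgn0028550), a bZIP factor gene linked in the fly to stress, immunity and metabolism, fell least of the 8. It was at 110, 85.2, 89.8 and 80.1 FPKM in ScOE and at 145, 149 and 141 FPKM in Ctrl. The groups did not overlap, and ScOE 1 was the nearest to Ctrl. The log2 fold change was -0.67 ± 0.13, with an adjusted p of 0.00692 in limma, and this was the only one of the 8 falls whose direction turned under a scaling that was run, to 0.19 with equal FPKM totals (adjusted p = 0.4 in limma). With quantile normalization it did not pass either (log2 -0.36, adjusted p = 0.0923 in limma).

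Among the genes known as outputs of the pathway, puc (FBgn0243512), the JNK phosphatase gene used as a standard readout of JNK activity, was at 120, 111, 95.4 and 110 FPKM in ScOE and at 260, 309 and 302 FPKM in Ctrl. The groups were narrow, with coefficients of variation of 9.29% in ScOE and 9.04% in Ctrl. Its log2 fold change was -1.40 ± 0.12, with the smallest adjusted p of the 10 genes (0.000243 in limma). Gadd45 (FBgn0033153), a stress-inducible gene whose mammalian relatives act on kinases upstream of JNK, was at 22.7, 26.8, 25.9 and 25.1 FPKM in ScOE and at 112, 69.8 and 72.0 FPKM in Ctrl. As for Ets21C, Ctrl 1 was the highest library. The log2 fold change of Gadd45 was -1.68 ± 0.18 (adjusted p = 0.000531 in limma). Mmp1 (FBgn0035049), which encodes a secreted matrix metalloproteinase, was at 26.1, 36.2, 23.1 and 33.3 FPKM in ScOE and at 91.3, 59.9 and 66.6 FPKM in Ctrl. It was the most variable of the 10 within ScOE, with a coefficient of variation of 20.6%, and its log2 fold change was -1.26 ± 0.21 (adjusted p = 0.00342 in limma).

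**Figure D2:**
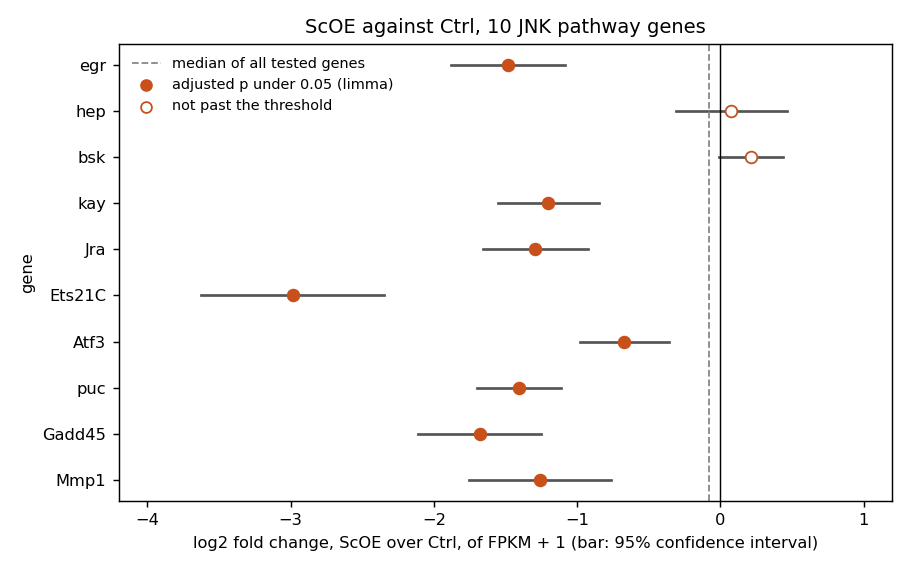
Log2 fold change of FPKM + 1, ScOE over Ctrl, for the 10 genes (points) with 95% confidence intervals from limma (bars); filled points passed an adjusted p under 0.05 and the dashed line is the median over all genes tested, -0.08. The 8 filled points lie between -2.98 and -0.67, and the open points of hep and bsk, at 0.08 and 0.21, have intervals that include 0.

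The 8 calls held when any 1 of the 7 libraries was left out, with adjusted p values from 0.000243 to 0.0288 in limma. They also held with both other pseudocounts, without a filter, with a filter of 5 FPKM and with median of ratios and upper quartile scaling. How the libraries were scaled to each other set the size of each change. A single non-coding RNA entry, CR40469, was the highest in every library, and the 10 highest entries of each library held 32.5% to 42.3% of the FPKM total in ScOE and 43.3% to 51.2% in Ctrl. When every library was given an equal FPKM total, the median over the tested genes was 0.68 on the log2 scale, and with the 10 highest entries left out of those totals it was 0.45. With equal totals 4 of the 8 remained called lower, namely egr, puc, Ets21C and Gadd45, at log2 fold changes of -0.64, -0.54, -2.12 and -0.83. In that setting kay (log2 -0.33, adjusted p = 0.179), Jra (log2 -0.43, adjusted p = 0.141) and Mmp1 (log2 -0.41, adjusted p = 0.229) did not pass in limma, and hep (log2 0.92) and bsk (log2 1.07) were called higher. Relative to the median over tested genes in the same setting, the median of the 10 genes lay between -1.27 and -0.96 under every setting that was run.

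**Figure D3:**
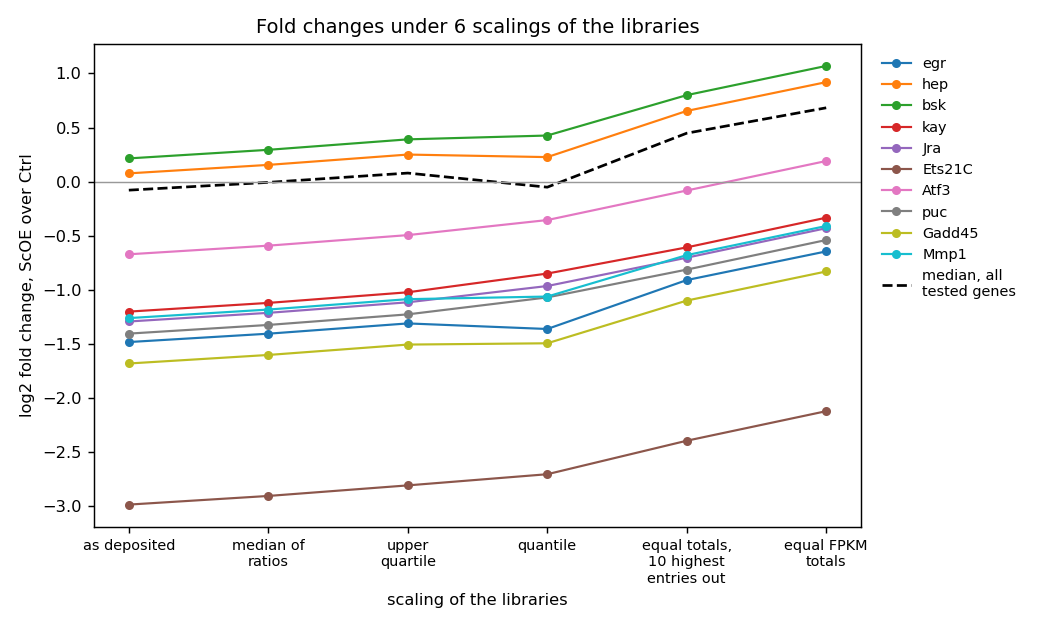
Log2 fold change, ScOE over Ctrl, of the 10 genes (coloured lines) and the median of all tested genes (black dashed line) under 6 scalings of the libraries. The median runs from -0.08 as deposited to 0.68 with equal FPKM totals, and with quantile normalization kay, at -0.85, and Atf3, at -0.36, rise while the median, at -0.05, hardly moves; hep and bsk stay above the median and the other 8 genes below it.

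Compared per length, the order of the 10 genes differed between the groups. In ScOE kay was followed by puc, Atf3, Jra, bsk, Ets21C, hep, Mmp1, Gadd45 and egr. The ranges of puc and Atf3, Atf3 and Jra, bsk and Ets21C, hep and Mmp1, and Mmp1 and Gadd45 overlapped in ScOE. Compared within libraries, puc was above Atf3 and Atf3 above Jra in 4 of 4 ScOE libraries, bsk above Ets21C and Mmp1 above Gadd45 in 3 of 4, and hep above Mmp1 in 2 of 4. In Ctrl kay was followed by Ets21C, puc, Jra, Atf3, Gadd45, Mmp1, bsk, egr and hep, and only the ranges of kay and Ets21C and of Gadd45 and Mmp1 overlapped; kay was above Ets21C in 2 of 3 Ctrl libraries and Gadd45 above Mmp1 in 3 of 3. Ets21C thus ranked 6 of 10 by mean level in ScOE, at 62.4 FPKM, and 2 of 10 in Ctrl, at 527 FPKM. The kinase gene bsk ranked 5 in ScOE, at 66.5 FPKM, and 8 in Ctrl, at 57.1 FPKM.

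Within the groups the 10 genes did not vary together in a single way. In ScOE, library 1 was the highest for 7 of the 10, namely egr, hep, bsk, Jra, puc, Ets21C and Atf3, and it was the lowest for Gadd45. ScOE 1 also had the lowest summed enteroendocrine markers of its group, 2737 FPKM against 4087 to 8092 FPKM in ScOE 2 to 4, and the lowest summed enterocyte markers. In Ctrl, library 1 was the highest for hep, bsk, Ets21C, Gadd45 and Mmp1 and the lowest for egr, kay and puc. Ctrl 1 had lower summed heat shock transcripts than the other Ctrl libraries, 3137 FPKM against 8147 and 8723 FPKM, and the ScOE libraries lay between 1893 and 3388 FPKM. The part of these differences in the values of the 10 genes was not tested. The largest spread in a group was that of Ets21C in Ctrl, where the highest library was 2.19 times the lowest, and the smallest were those of bsk and Atf3 in Ctrl, at 1.05 and 1.06 times.

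A ratio of 2 genes within a library moves little with the scaling of that library. The puc to bsk ratio, output over kinase, was 1.75, 1.63, 1.45 and 1.74 in ScOE 1 to 4 and 4.41, 5.48 and 5.39 in Ctrl 1 to 3. Every ScOE ratio lay below every Ctrl ratio, with means of 1.64 ± 0.140 in ScOE and 5.10 ± 0.591 in Ctrl (SD). The levels given above fix this separation, since in every ScOE library puc was lower and bsk higher than in every Ctrl library. The log2 difference was -1.62, with p = 0.0571 when the 2 groups were compared by an exact permutation test (two-sided by doubling the smaller tail, 35 arrangements), which is the smallest value it can give, and 0.114 adjusted over the 2 ratios computed. With the absolute difference as the statistic, a choice made after the values were seen, the exact p was 0.0286, also the smallest possible, and 0.0571 adjusted over both ratios. The first of these exact p-values was thus set in advance, and the second rests on the same separation. Neither adds to the values of puc and bsk themselves. The kay to Jra ratio, the balance of the AP-1 partners, was 2.98, 4.29, 3.55 and 4.07 in ScOE and 2.81, 2.85 and 5.06 in Ctrl. These groups overlapped, and the log2 difference of 0.09 had p = 0.686 in the same exact test. Its sign rested on single Ctrl libraries, since the difference was -0.05 without Ctrl 1, -0.04 without Ctrl 2 and 0.37 without Ctrl 3.

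**Figure D4:**
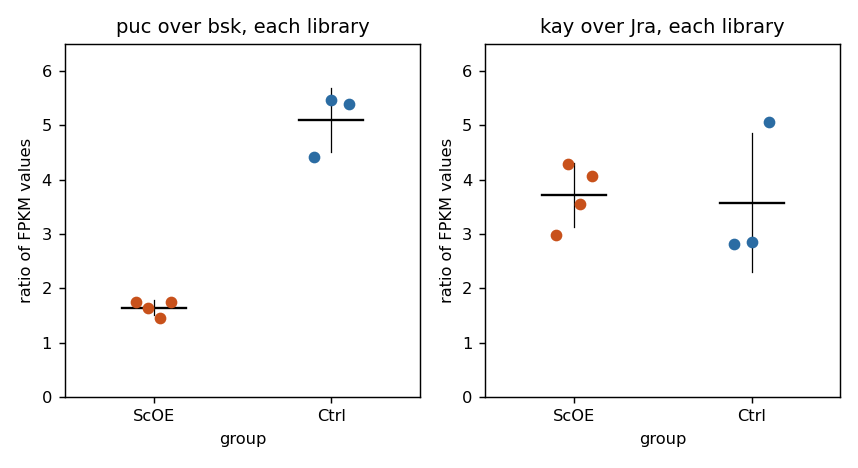
Ratio of FPKM values within each library for puc over bsk (left) and kay over Jra (right), with ScOE in orange and Ctrl in blue, horizontal bars at the means and vertical bars for 1 SD. The puc over bsk points lie between 1.45 and 1.75 in ScOE and between 4.41 and 5.48 in Ctrl, and the kay over Jra points overlap.

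By position the 10 genes are spread over 2L, 2R, 3R and X. On the BDGP6 annotation used here (Ensembl release 115) egr lies on chromosome 2R at 10078366 to 10084210 and Jra on the same arm at 10096480 to 10098556, both on the plus strand. They are 12269 bases apart with CG2269 and sut4 between them. Gadd45 and Mmp1 are also on 2R, bsk (10247502 to 10250501) and Ets21C (544925 to 552923) are on 2L, kay (29765995 to 29794113) and puc (8105332 to 8122294) are on 3R, and hep and Atf3 are on X. In 6 of the 10 a gene on the opposite strand overlaps the locus, and whether reads were assigned by strand is not given in the sources used here. The nested genes inside kay (fig and CR46110), puc (CR44331) and Ets21C (nAChRbeta3) reached at most 5.84 FPKM in any library, far below their hosts. The end of Jra overlaps RpLP0-like by 39 bases, and RpLP0-like was itself at 35.7 FPKM in ScOE and 92.3 FPKM in Ctrl (means). Mmp1 overlaps Pof by 284 bases, and Pof averaged 7.25 FPKM in ScOE and 9.51 FPKM in Ctrl. In egr the overlapping genes are small nucleolar RNAs, of which the 1 entry in the table was listed at 0.

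Around these 10 genes, 7 lists of other pathway genes held 65 genes, of which 56 were tested, 7 rose and 23 fell, against 17.6% of all tested genes called higher and 21.3% called lower. The lists were chosen with earlier results of these data known. Of the receptors, adaptors and kinases upstream of hep, 18 were tested, 4 rose, 5 fell and 9 did not pass, with a median log2 fold change of -0.01 against -0.08 for all tested genes. These counts are near the shares over all tested genes. The largest change was that of grnd (listed as CG10176), which encodes the Eiger receptor Grindelwald. It was at 16.1, 16.1, 15.6 and 16.2 FPKM in ScOE and at 1.10, 0.369 and 0.596 FPKM in Ctrl. The receptor gene was thus low in every Ctrl library and at nearly the same level in every ScOE library, the opposite of its ligand gene. Its log2 fold change was 3.36 ± 0.16, with an adjusted p of 2.03e-05 in limma, and it was at least 1.89 under every setting that was run. The opposite-strand gene kon overlaps grnd by 275 bases and averaged 3.12 FPKM in ScOE and 0.0855 FPKM in Ctrl. The other Eiger receptor gene, wgn, was not tested, with under 1 FPKM in every library.

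Also higher upstream were the Src kinase gene Src64B, with means of 62.2 ± 3.34 FPKM in ScOE and 20.8 ± 1.33 FPKM in Ctrl (log2 1.53 ± 0.10, adjusted p = 8.05e-05 in limma), and Aplip1, a JNK scaffold gene known from axonal transport. Aplip1 averaged 3.48 ± 0.884 FPKM in ScOE and 0.251 ± 0.0904 FPKM in Ctrl (log2 1.82 ± 0.19). The kinase gene Ask1, listed as Pk92B, was the fourth that rose (log2 0.49, adjusted p = 0.0194 in limma). The kinase gene msn averaged 117 ± 14.4 FPKM in ScOE and 206 ± 39.8 FPKM in Ctrl (log2 -0.79, adjusted p = 0.00891 in limma), Mekk1 fell by 0.66 on the log2 scale (adjusted p = 0.0268), and Traf6, an adaptor gene, fell by 0.46 (adjusted p = 0.0288). The count of 5 falls was 2 without any one of ScOE 1, ScOE 2, ScOE 3 or Ctrl 2, 1 without ScOE 4 or Ctrl 3 and 3 without Ctrl 1. The count of 4 rises was 3 without ScOE 2, without Ctrl 3 and with the replicate block. With equal FPKM totals 11 rose and 0 fell, and msn, Mekk1 and Traf6 had log2 fold changes of 0.07, 0.13 and 0.22. Quantile normalization gave 7 higher and 3 lower, and upper quartile scaling 6 higher and 1 lower. With the replicate block 0 fell. Among the genes that did not pass was the JNK kinase kinase gene Tak1, at 27.1 ± 3.74 FPKM in ScOE and 33.2 ± 3.79 FPKM in Ctrl, and the small GTPase gene Rac1, at 162 ± 15.6 FPKM in ScOE and 156 ± 6.40 FPKM in Ctrl.

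**Figure D5:**
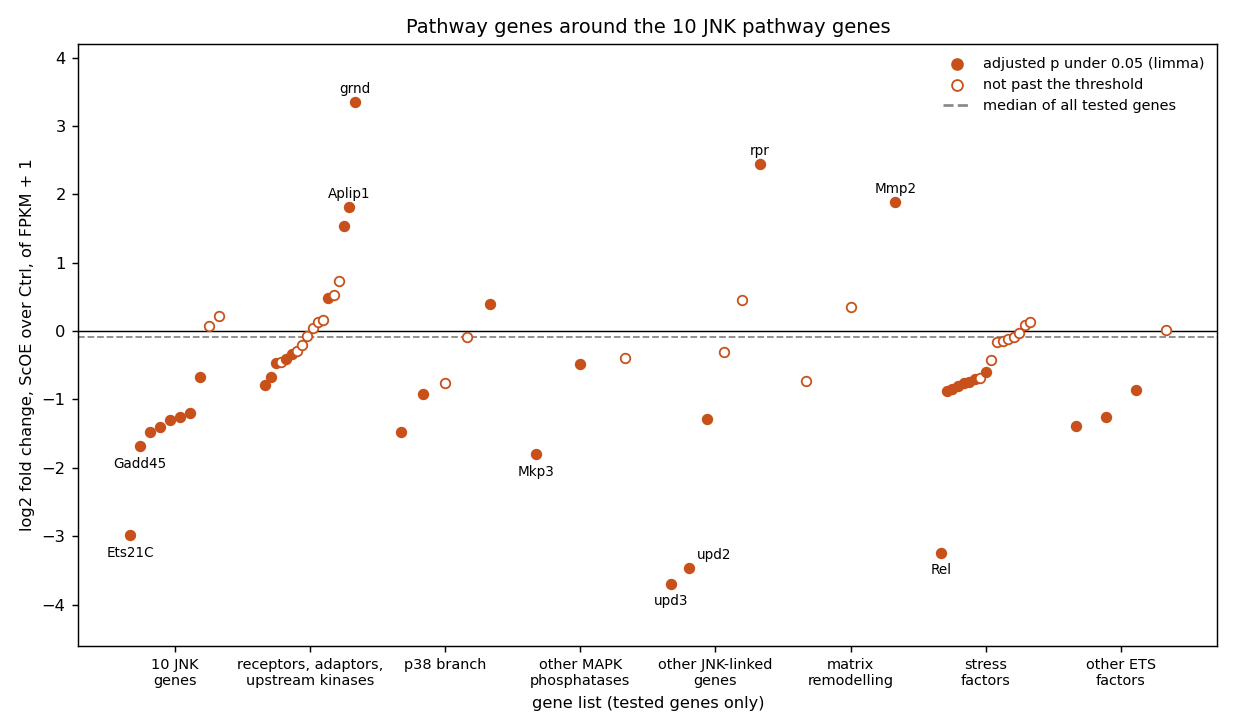
Log2 fold change of FPKM + 1, ScOE over Ctrl, of every tested gene in 8 lists, sorted within each list; filled points passed an adjusted p under 0.05 in limma, the dashed line is the median of all tested genes, and genes beyond 1.6 on the log2 scale are named. Ets21C, Rel, upd2 and upd3 are the lowest points, at -2.98 to -3.69, and grnd, at 3.36, is the highest; with equal FPKM totals the directions of Atf3, msn, Mekk1, Traf6, Mkp and crc turn among the genes named by the selection rule, and those of the other points were not listed.

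The p38 kinases form a parallel stress branch. Of its 5 genes 1 rose and 2 fell, against 17.6% of all tested genes called higher and 21.3% called lower. The p38 gene p38a averaged 6.76 ± 1.40 FPKM in ScOE and 20.4 ± 2.37 FPKM in Ctrl (log2 -1.47 ± 0.17, adjusted p = 0.000716 in limma). The p38 kinase kinase gene lic was higher (log2 0.40, adjusted p = 0.0189 in limma), a call that was lost without ScOE 1 (adjusted p = 0.0568) or Ctrl 3 (adjusted p = 0.0565), where the count was 0. Of 3 other MAPK phosphatase genes 2 fell, against 21.3% of all tested genes called lower. Mkp3, which encodes a phosphatase of the ERK MAPK, averaged 55.9 ± 11.7 FPKM in ScOE and 197 ± 44.9 FPKM in Ctrl (log2 -1.80 ± 0.23, adjusted p = 0.000974 in limma). The fall of Mkp (log2 -0.48, adjusted p = 0.0385 in limma) was lost without ScOE 2, 3 or 4 or Ctrl 2 or 3, without a filter, with the replicate block and with upper quartile, median of ratios and quantile scaling, where the count was 1.

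Among 11 other genes reported as JNK-linked outputs, 6 were tested, 3 fell, 1 rose and 2 did not pass. Of all tested genes 21.3% were called lower and 17.6% higher. The cytokine genes upd3 and upd2, ligands of JAK/STAT signalling that damaged guts are known to induce, were at 10.1 to 14.4 and 13.8 to 36.2 FPKM in ScOE and at 148 to 224 and 185 to 498 FPKM in Ctrl. Their log2 fold changes were -3.69 ± 0.20 and -3.47 ± 0.44 (adjusted p = 3.5e-05 and 0.00102 in limma), deeper than that of any of the 10 genes. The filamin gene cher was at 198, 203, 186 and 143 FPKM in ScOE and at 438, 447 and 442 FPKM in Ctrl (log2 -1.29 ± 0.15, adjusted p = 0.000645 in limma). With equal FPKM totals cher did not pass (log2 -0.42, adjusted p = 0.118 in limma), and the count of falls was 2. The cell death gene rpr, in contrast, was higher, at 4.67, 8.76, 8.57 and 5.85 FPKM in ScOE and at 0.207, 0.237 and 0.925 FPKM in Ctrl (log2 2.45 ± 0.26, adjusted p = 0.000512 in limma). The listed genes scaf, Ilp8, upd1, dpp and wg were below 1 FPKM in every library and were not tested.

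Among the other matrix genes 1 of 3 rose and 0 fell at the threshold, against 17.6% and 21.3% of all tested genes. Mmp2, the second fly matrix metalloproteinase gene, was at 4.23, 6.02, 6.49 and 4.66 FPKM in ScOE and at 1.18, 0.416 and 0.580 FPKM in Ctrl, all 4 ScOE libraries lying above the Ctrl libraries. It rose by a log2 fold change of 1.89 ± 0.21 (adjusted p = 0.000548 in limma) where Mmp1 fell by 1.26, and on the FPKM scale Mmp1 remained the higher of both in ScOE. The inhibitor gene Timp averaged 44.0 ± 11.7 FPKM in ScOE and 71.5 ± 9.63 FPKM in Ctrl and did not pass (log2 -0.72, adjusted p = 0.0511 in limma), although its groups did not overlap. The gene RECK, with means of 1.05 FPKM in ScOE and 0.616 FPKM in Ctrl, did not pass either. Its log2 fold change was 0.35 (adjusted p = 0.101 in limma), and its groups did not overlap, with ScOE the higher. The count of matrix genes called lower was 1 without ScOE 4, with a pseudocount of 5, with a filter of 5 FPKM, with library weights and with the replicate block. The count called higher was 2 with library weights and with equal FPKM totals, also when the 10 highest entries were left out. With a filter of 5 FPKM it was 0. Mmp2 could not be tested with the 5 FPKM filter.

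Of 17 other stress-responsive transcription factor genes, all tested, 8 fell, 0 rose and 9 did not pass, against 21.3% of all tested genes called lower and 17.6% called higher, with a median log2 fold change of -0.59. At an unadjusted p under 0.05, again 0 rose, and the share of all tested genes at that threshold was not counted. Rel, the NF-kappaB factor of the IMD immune pathway, was at 52.3, 47.6, 46.3 and 26.8 FPKM in ScOE and at 910, 298 and 244 FPKM in Ctrl. As with Ets21C and upd2, Ctrl 1 was far above the other Ctrl libraries, and the log2 fold change of -3.24 ± 0.47 was -2.66 without it. The antioxidant factor gene cnc averaged 131 ± 8.18 FPKM in ScOE and 243 ± 33.3 FPKM in Ctrl (log2 -0.88 ± 0.13, adjusted p = 0.00195 in limma). The ATF4 gene crc averaged 526 ± 66.2 FPKM in ScOE and 887 ± 113 FPKM in Ctrl (log2 -0.75 ± 0.15). The heat shock factor gene Hsf was at 24.1 ± 3.41 FPKM in ScOE and 25.4 ± 1.52 FPKM in Ctrl and did not pass (adjusted p = 0.69 in limma). The count of 8 was 5 without ScOE 2, 5 without Ctrl 2, 4 without Ctrl 3, 5 with upper quartile scaling, 3 with quantile normalization and 1 with equal FPKM totals, where 6 were called higher. The gene crc was at a log2 fold change of -0.33 with quantile normalization (adjusted p = 0.24 in limma) and of 0.12 with equal FPKM totals, and cnc at -0.01 with equal FPKM totals (adjusted p = 0.959 in limma).

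Of the other ETS factor genes 4 were tested and 3 fell, against 21.3% of all tested genes called lower. The EGFR effector pnt averaged 11.8 ± 0.885 FPKM in ScOE and 29.7 ± 4.18 FPKM in Ctrl (log2 -1.26 ± 0.13, adjusted p = 0.000433 in limma). Its antagonist aop fell by 0.86 on the log2 scale and the ecdysone-inducible gene Eip74EF by 1.39. None of the 3 fell as far as Ets21C, but the difference between genes was not tested. Ets97D was at 13.3 ± 1.13 FPKM in ScOE and 13.4 ± 4.02 FPKM in Ctrl, and Ets65A, Ets96B and Ets98B were below 1 FPKM in every library. With equal FPKM totals pnt, aop and Eip74EF did not pass.

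Likeness to the profile of puc over the 7 libraries was measured as the root mean square difference of log2(FPKM + 1) after removing each gene's mean. Of the 8420 other tested genes the 3 nearest to puc were wake, Myo28B1 and loco, at 0.0722, 0.0862 and 0.0884. The regulator of G protein signalling gene loco, for example, was at 152, 122, 118 and 117 FPKM in ScOE and at 307, 380 and 371 FPKM in Ctrl. For Ets21C the nearest were wun2, CG4267 and CG7142, at 0.174, 0.216 and 0.226. The lipid phosphatase gene wun2 was at 32.9, 35.9, 27.6 and 18.1 FPKM in ScOE and at 318, 199 and 173 FPKM in Ctrl, with Ctrl 1 the highest library as for Ets21C.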

How the data were processed

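Gene positions came from Ensembl release 115 of BDGP6. RNA from about 10000 sorted midgut cells per sample was amplified and sequenced, per the labels' protocols. The submitters' processing notes name TopHat2 2.0.10, Cufflinks 2.2.1 and the build BDGP6. The deposited unit was FPKM for 17481 genes in 3 Ctrl and 4 ScOE libraries, without read numbers, and strand assignment and scaling between libraries are not stated. Lists of 139 entries were matched by symbol or older symbol. Two-sided tests came from limma 3.58.1 (R 4.3.3), fitted to log2(FPKM + 1) with a trend in the prior variance. They covered the 8421 genes that 3 or more libraries had at 1 FPKM or more, with Benjamini-Hochberg adjustment across this set and a threshold of 0.05. The limma fit was also run on simulated FPKM tables with known changes, drawn from the means and spreads of these data. Ratios were compared by exact permutation tests (scipy 1.17.1), and figures drawn with matplotlib 3.10.9. The genes, lists and tests were chosen with earlier results of these data known. Named genes were the 10 members, sc, from each pathway list up to 3 called risers and 3 called fallers, taken by adjusted p, and the 3 profiles nearest to puc and to Ets21C; others were chosen after their values were seen. Alternatives were other pseudocounts, filters and scalings, library weights, a replicate block and each library left out; equal totals without the highest entries was added after the data were seen. A gene that this rule names is not reported here.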

Additional observations from a re-analysis of the deposited data

Results flagged for a closer look

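In the 4 ScOE libraries 41 results were checked for a single library standing apart from the other 3 by Dixon's criterion, and 2 met it, where chance flags about 1 in 20. The grnd value of ScOE 3, 15.6 FPKM, lay below the other ScOE libraries, at 16.1 to 16.2 FPKM, a gap that is small beside the difference from Ctrl. The loco value of ScOE 1, 152 FPKM, lay above the other ScOE libraries, at 117 to 122 FPKM.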

How the results depend on the processing

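Of the 10 JNK pathway genes, none changed its call with another pseudocount, without a filter, with a filter of 5 FPKM, with the replicate block or without any 1 library. The count called lower was 4 in place of 8 with equal FPKM totals. The count called higher was 1 in place of 0 (bsk) with upper quartile scaling, median of ratios scaling, quantile normalization and library weights, and 2 (hep and bsk) with equal FPKM totals, also when the 10 highest entries were left out. Atf3 did not pass with quantile normalization (log2 -0.36, adjusted p = 0.0923), and Atf3 and Mmp1 did not pass with equal totals without those entries (adjusted p = 0.656 and 0.0506). Over all tested genes 1484 were called higher and 1796 lower; with equal FPKM totals the counts were 4531 and 274, without the 10 highest entries 3530 and 518, and with upper quartile scaling 1924 and 1247. Among the 39 genes named by the selection rule, directions that turned with equal FPKM totals were those of Atf3 (log2 0.19), msn (0.070), Mekk1 (0.13), Traf6 (0.22), Mkp (0.36) and crc (0.12), and without the highest entries those of Traf6 (0.0061) and Mkp (0.10). Leaving out each library gave 1148 to 1511 higher and 1325 to 1668 lower calls, log2 differences of -1.72 to -1.56 for puc over bsk and of -0.053 to 0.37 for kay over Jra, tests that could not go below 0.1 or 0.133. For puc over bsk (log2 -1.62) the exact p was 0.0286 with the absolute difference as the statistic, added after the data were seen, in place of 0.0571. Both rest on the separation of puc and of bsk between the groups and add nothing to it.

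Whether replicate numbers pair the libraries could not be settled from so few libraries. Same-numbered libraries had correlations of their deviations from the group means of 0.524, -0.041 and 0.082, the first being the highest of all pairs. ScOE 1, ScOE 3 and Ctrl 1 correlated best with their own number, and ScOE 2, Ctrl 2 and Ctrl 3 did not. With the replicate number as a block 8 of the 10 genes were called lower and 0 higher, over all genes 1349 and 1191, and msn, Mekk1, Traf6, lic and Mkp did not pass. ScOE 4 has no Ctrl library of its number, so in this fit it does not enter the group difference. The median log2 fold change of the 10 genes was -1.30 with the block, as it was without ScOE 4.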
